A study of Mus musculus with 10 samples.

Results

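The insulin-like growth factor (IGF) family was followed across the lungs of 10 mice: the ligands Igf1 and Igf2, the receptors Igf1r and Igf2r, and the binding proteins Igfbp2, Igfbp3, Igfbp4, Igfbp5, Igfbp6 and Igfbp7. These 10 genes were chosen by name from the 23930 targets of an amplicon panel, and all 10 were measured in every library. The mice were wild-type female BALB/c, 8 to 9 weeks old at purchase. The HDM + nafamostat group (3 mice) received intranasal house dust mite (HDM) extract and, 30 minutes before each instillation, intraperitoneal nafamostat at 20 mg/kg, an inhibitor of serine proteases. The HDM group (3 mice) received the extract, and the PBS group (4 mice) received phosphate-buffered saline by the same route. The extract was instilled 2 times weekly, over 3 weeks by the methods and labels and over 6 weeks by the legends of the figures. A dose held 10 μg in 30 μl by the methods, and the labels give the same figures in mg and ml. Nafamostat was dissolved in 3% acetic acid in PBS. For other measurements the legends describe controls given PBS alone, and the methods list HDM mice with and without this vehicle as separate groups. Which of these the sequenced HDM mice were is not given in the sources used here.

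IGF1 and IGF2 are small secreted hormones related to insulin that promote growth, survival and migration of cells through the tyrosine kinase receptor IGF1R. IGF2R, which also carries mannose-6-phosphate proteins to lysosomes, takes up IGF2 and removes it. In tissue, most IGF is held by binding proteins that keep it from the receptor or store it near cells, until proteases cleave them. In the lung, macrophages and fibroblasts are known sources of IGF1, and IGFBP2 is a known product of mature alveolar type 1 cells.

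Each library held the reads of 1 mouse, and the totals ranged over 8053532 to 9666354 counts for HDM + nafamostat, 7105946 to 9354416 for HDM and 5901279 to 7353792 for PBS. CPM is the level of a gene after each library was brought to the same total, with factors from TMM (trimmed mean of M values). The panel reads 1 amplicon per gene, so a level can be compared between libraries but not between genes. With 1 library per mouse, p-values measure the spread between mice together with that of sampling and library preparation. Markers of lung cells were present in every library, among them alveolar type 2 markers at a summed 18468 to 31624 CPM. Olfactory receptor genes, which are best known from sensory neurons of the nose, were highest in HDM replicate 3 (1609 CPM summed). Within the other groups they were highest in HDM + nafamostat replicate 2 (412 CPM) and PBS replicate 2 (617 CPM). The lowest member, Igf2, had 32 to 58 counts with HDM + nafamostat, 19 to 38 with HDM and 43 to 91 with PBS. Every other member had at least 89 counts in each library. Whether the counting used strand is not given in the sources used here, so that reads of a member and of an antisense gene could not be told apart. The antisense targets Igf2os and Airn, which lie at Igf2 and Igf2r, had 0 to 8 and 1 to 9 counts per library.

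The members lie on 7 chromosomes, and only Igfbp2 and Igfbp5 are close neighbours (GRCm38, GENCODE M21). Igfbp2 (chr1:72824503-72852474, plus strand) and Igfbp5 (chr1:72857932-72874884, minus strand) end 5457 bases apart, with their 3′ ends facing. Igf1 lies at chr10:87858265-87937042, Igf2 at chr7:142650766-142666816, Igf1r at chr7:67952827-68233668 and Igf2r at chr17:12682406-12769664. Igfbp3 lies at chr11:7206086-7213923, Igfbp4 at chr11:99041244-99054392, Igfbp6 at chr15:102144362-102149511 and Igfbp7 at chr5:77349240-77408041.

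The 250 bases before the RefSeq start sites (GRCm38.p6) are shown for 4 members that moved differently: Igf1 (higher with HDM), Igf1r and Igfbp3 (lower) and Igfbp4 (not passed with HDM). All 10 members matched an entry, Igf2 with 4 start sites and Igfbp2 with 2. Both strands were searched for STAT (TTCNNNGAA), STAT6 (TTCNNNNGAA), AP-1 (TGANTCA), GC box (GGGCGG) and TATA box (TATAAA) letters, and matches stand in capitals. Overlap between matches was allowed. The Igf1 window lies in an exon of longer Igf1 transcripts in GENCODE, so 27 bases around its match to the AP-1 letters (chr10:87861064-87861090, plus strand) are printed. The others are Igf1r (chr7:67952007-67952256, plus strand), Igfbp3 (chr11:7213924-7214173, minus strand) and Igfbp4 (chr11:99040994-99041243, plus strand).
Igf1: agctggaactTGAATCActattctgga
Igf1r: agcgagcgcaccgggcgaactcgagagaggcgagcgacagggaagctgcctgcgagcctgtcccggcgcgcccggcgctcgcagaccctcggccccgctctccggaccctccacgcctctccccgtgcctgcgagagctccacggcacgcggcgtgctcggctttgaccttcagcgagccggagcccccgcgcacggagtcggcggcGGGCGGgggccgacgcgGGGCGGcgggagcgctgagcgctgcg
Igfbp3: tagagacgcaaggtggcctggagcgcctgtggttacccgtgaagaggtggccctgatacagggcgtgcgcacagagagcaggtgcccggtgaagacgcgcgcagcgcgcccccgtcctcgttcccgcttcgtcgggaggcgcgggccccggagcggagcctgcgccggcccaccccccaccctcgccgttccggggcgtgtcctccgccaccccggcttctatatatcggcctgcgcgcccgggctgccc
Igfbp4: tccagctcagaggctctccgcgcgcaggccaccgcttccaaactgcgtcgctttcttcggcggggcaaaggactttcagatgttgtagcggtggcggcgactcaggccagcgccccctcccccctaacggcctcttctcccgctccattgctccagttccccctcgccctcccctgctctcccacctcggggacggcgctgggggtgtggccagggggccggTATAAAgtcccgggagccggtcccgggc
The Igf1 window held 52.8% G and C and 5 CpG pairs, against a median of 52.4% and 6 over 32851 promoters of the same length. The windows of Igf1r and Igfbp3 held 77.6% and 73.2% G and C with 42 and 32 CpG pairs. Those of Igfbp5 and Igfbp6, which also fell with HDM, held 58.8% and 49.6% with 10 and 7 pairs. Those of Igfbp4 and Igfbp7, which did not pass with HDM, held 69.2% and 74% with 22 and 26 pairs. Igf1r had 2 GC boxes, which 32.7% of all promoters hold, and Igfbp3 had no match to any of the searched letters. Igfbp4 had a TATA box 28 bases before the start, a match found in 12.4% of promoters. AP-1 letters are in 6.75% of promoters, STAT letters in 7.02% and STAT6 letters in 5.85%, and no window of a member held either STAT sequence. Besides Igf1, Igfbp2, which fell with HDM, had a match to the AP-1 letters, 39 bases before its start site 2. The middle base of these letters was left free, and it was A in Igf1 and G in Igfbp2. Whether AP-1 binds either sequence was not tested. No searched sequence was in the windows of all 7 members that fell with HDM, and Igfbp7, which did not pass in any comparison, had 4 GC boxes.

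**Figure D1:**
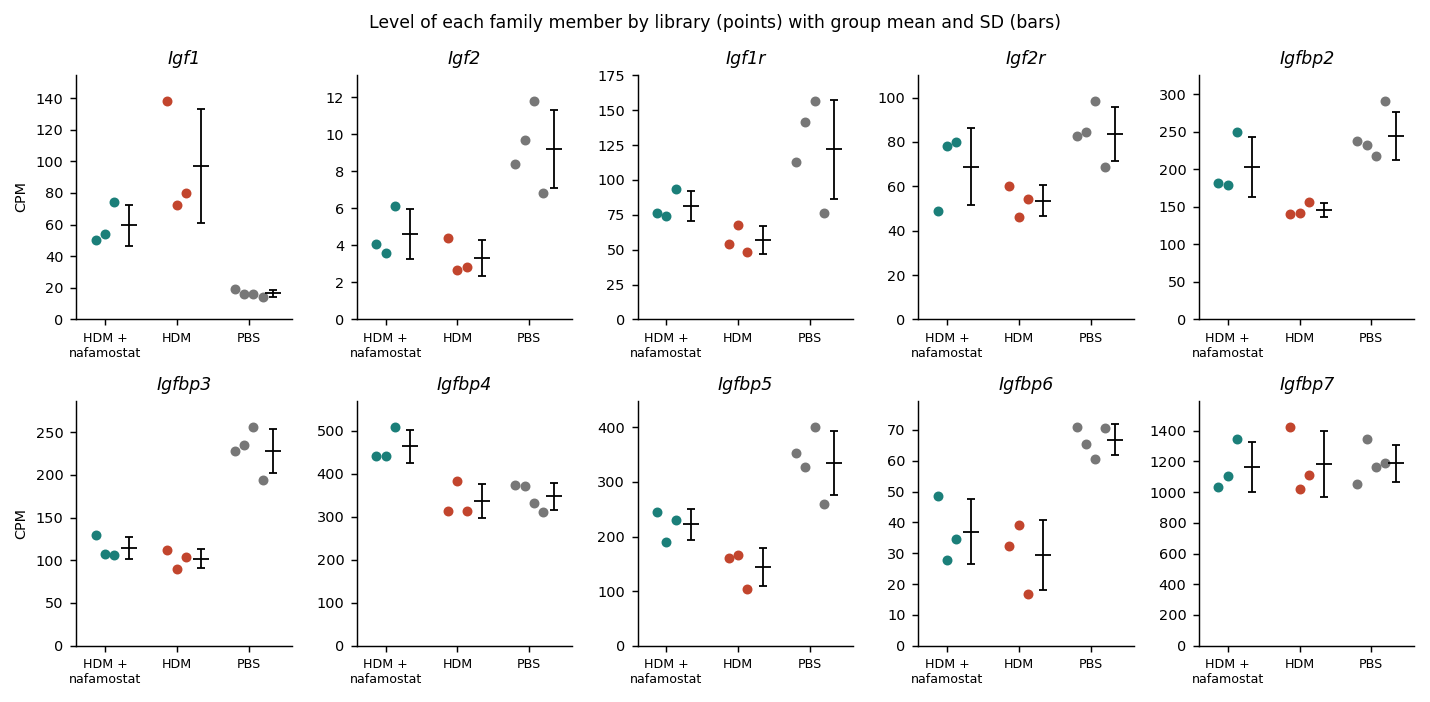
CPM of the 10 members in every library (1 point per mouse, y axis on a linear scale that differs between panels and starts at 0), with the group mean and SD as a bar beside the points. Igf1 is lowest in the 4 PBS libraries at 14.1 to 18.9 CPM, while Igf2, Igfbp3, Igfbp5 and Igfbp6 are highest there.

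In lungs of HDM mice, the family moved in opposite directions: Igf1 rose and 7 members fell. A gene was taken as passed at an adjusted p under 0.05 in edgeR's quasi-likelihood test with Benjamini-Hochberg adjustment over all genes tested, at any fold. Igf2, both receptors, Igfbp2, Igfbp3, Igfbp5 and Igfbp6 were the members that fell, and Igfbp4 and Igfbp7 did not pass. The background was that 29.5% of 14608 genes tested passed for HDM against PBS, 15.3% higher and 14.2% lower. With library totals as the only scaling, 42% of the genes that passed were higher, against 52% with TMM. The median log2 fold change of the members was −0.92, and that of all genes was 0.02. In 8 of 10 members the HDM and PBS libraries did not overlap, against 36.6% of all genes. At a change of at least 2-fold, 1 member rose and 5 fell, against 11.4% of genes in either direction. All 8 members that passed also did so, in the same direction, under each of 14 alternatives.

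With nafamostat given before HDM, 0 of 10 members passed against HDM alone in edgeR's quasi-likelihood test, where 2.92% of 14413 genes did, 0.951% higher and 1.97% lower. Of the genes that passed, 32.5% were higher, and 51.6% with library totals as the only scaling. Before adjustment, 5 members had a p under 0.05, against 21.4% of all genes. DESeq2 put 5 members past the same threshold, Igf1 lower and Igf1r, Igfbp2, Igfbp4 and Igfbp5 higher, and 6.78% of all genes past it. Those 4 higher members did not overlap between the groups, which was so for 25.3% of genes. The median log2 fold change of the members was 0.40, against −0.01 over all genes.

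In HDM + nafamostat lungs against PBS lungs, Igf1 and Igfbp4 were higher and Igf2, Igfbp3, Igfbp5 and Igfbp6 were lower in edgeR's quasi-likelihood test. Igf1r, Igf2r, Igfbp2 and Igfbp7 did not pass. The background was 14.3% of 14079 genes, 8.73% higher and 5.53% lower. The groups did not overlap for 6 of 10 members and for 24% of all genes. Igf1 was the only member with a change of at least 2-fold, which 5.76% of genes reached. The 3 comparisons share libraries in pairs, so the values of each HDM library enter 2 of them.

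**Figure D2:**
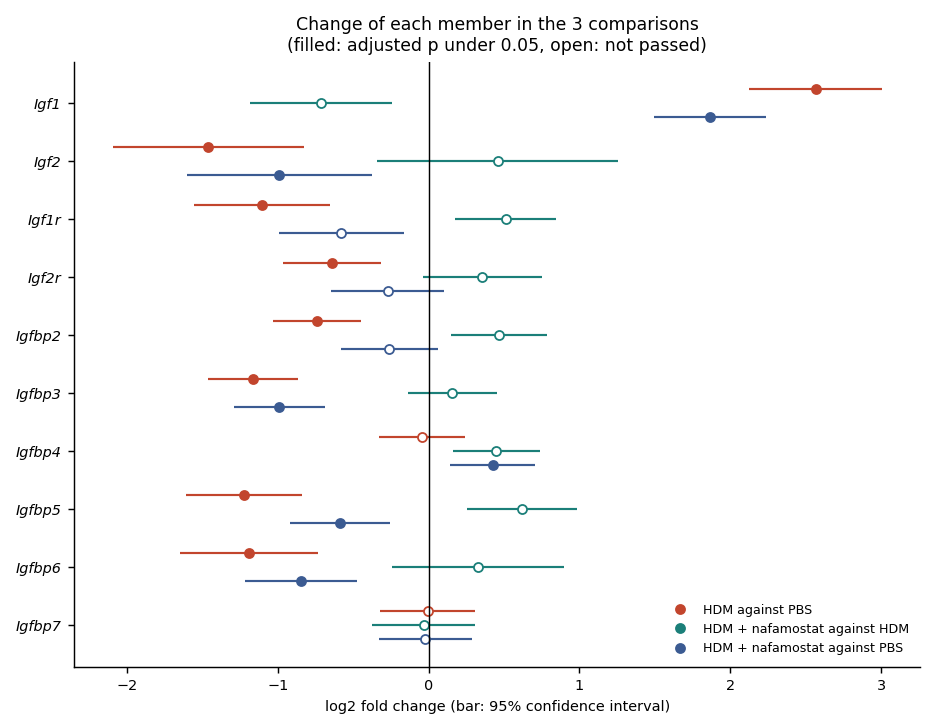
Log2 fold change of each member with its 95% confidence interval in the 3 comparisons, filled where the adjusted p was under 0.05. Igf1 lies at 2.57 for HDM against PBS and at 1.87 for HDM + nafamostat against PBS, and all points of HDM + nafamostat against HDM are open.

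Igf1, the main ligand of IGF1R, had 50.0, 54.0 and 74.4 CPM in the HDM + nafamostat libraries (replicates 1 to 3), 138, 72.7 and 79.9 CPM in the HDM libraries and 18.9, 16.4, 16.1 and 14.1 CPM in the PBS libraries. Both HDM-treated groups lay wholly above PBS, and they overlapped each other, since HDM + nafamostat replicate 3 was above HDM replicate 2. Igf1 averaged 97.0 ± 36.0 CPM in HDM lungs (SD, n = 3) and 16.4 ± 1.96 CPM in PBS lungs (n = 4). The log2 fold change was 2.57, with a standard error (SE) of 0.21 and an adjusted p of 4.13e-07 in edgeR's quasi-likelihood test, which is 5.92-fold, and Igf1 ranked 85 by p among all genes tested. In HDM + nafamostat lungs it averaged 59.4 ± 13.1 CPM (n = 3), a log2 fold change of 1.87 from PBS (SE 0.18, adjusted p = 9.83e-07 in edgeR's quasi-likelihood test). Against HDM the log2 fold change was −0.71, with a 95% confidence interval of −1.19 to −0.24 and an adjusted p of 0.0859 in edgeR's quasi-likelihood test. Without HDM replicate 1, the library with the most Igf1, this value was −0.38.

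Markers of macrophages, a known source of IGF1, were higher in both HDM-treated groups than in PBS, as was Igf1. Summed over the list they had 694 to 1161 CPM with HDM + nafamostat, 1002 to 1662 CPM with HDM and 233 to 273 CPM with PBS. Among HDM-treated libraries the order differed. HDM + nafamostat replicate 2 exceeded HDM replicates 2 and 3 in this sum (1161 against 1062.5 and 1002.5 CPM). Its Igf1 was lower, at 54.0 against 72.7 and 79.9 CPM. Markers of fibroblasts, another known source, were lower as a sum with HDM (3829 to 4152 CPM) than with PBS (4905 to 6259.7 CPM). Inmt weighed most in this sum, at 1246 to 1843 CPM with HDM and 2466 to 3960 CPM with PBS. Of 12 fibroblast markers tested, 6 fell and 2 rose with HDM, where 14.2% of all genes fell. Of 9 macrophage markers tested, 8 rose with HDM, among them Trem2 (log2 fold change 3.36) and Cd68 (2.28). Over all genes tested, 15.3% rose. The alveolar macrophage receptor Marco did not pass, and C1qa had at most 1 count in any library. Against HDM, 1 of the 9 passed with nafamostat, Trem2, which was lower (−1.02), where 2.92% of all genes passed. Eosinophil markers summed to 47.6 to 50.3 CPM with nafamostat, 78.1 to 109 CPM with HDM and 4.15 to 11.8 CPM with PBS. Genes best known from liver, the main source of circulating IGF1, were also counted in these libraries. Whether these reads came from liver was not tested. The sum over the list was 1.65, 98.6 and 3.80 CPM for the HDM + nafamostat libraries (replicates 1 to 3), 90.3, 175 and 30.8 CPM for the HDM libraries and between 2.30 and 31.4 CPM for PBS, and 7 of 8 tested were higher with HDM. Igf1 was above every PBS library in all HDM-treated libraries, whose liver sums ran from 1.65 to 175 CPM. In such bulk tissue, fewer cells of a type and less RNA per cell cannot be told apart, and the part of macrophage or eosinophil number or of liver RNA in the Igf1 values was not tested.

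**Figure D3:**
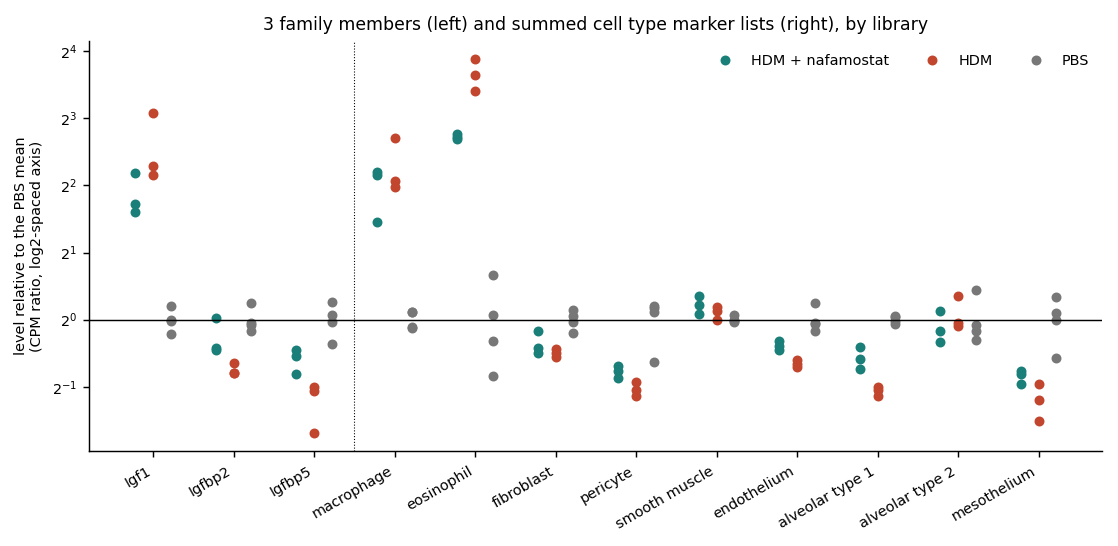
Level of Igf1, Igfbp2, Igfbp5 and the summed markers of 9 lung cell types in every library, relative to the mean of the PBS libraries (log2-spaced axis, 1 point per mouse). Igf1 and the macrophage and eosinophil sums lie above PBS in all 6 libraries of HDM-treated mice. The alveolar type 1, endothelium, pericyte and mesothelium sums lie below PBS in all 6.

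Igf2, the fetal growth factor that is imprinted and low in adult tissue, ran the other way. It had 4.07, 3.60 and 6.12 CPM with HDM + nafamostat, 4.41, 2.69 and 2.85 CPM with HDM, and 8.39, 9.71, 11.8 and 6.83 CPM with PBS. Every library of an HDM-treated mouse lay below every PBS library, and both HDM-treated groups overlapped. The log2 fold change for HDM against PBS was −1.46 (SE 0.30, adjusted p = 0.00176 in edgeR's quasi-likelihood test). For HDM + nafamostat against PBS it was −0.99 (adjusted p = 0.0292), a call that was lost when PBS replicate 2 or 3 or HDM + nafamostat replicate 1 or 2 was left out, with adjusted p of 0.0689, 0.0966, 0.0815 and 0.127 in edgeR's quasi-likelihood test. Against HDM, the interval of the log2 change with nafamostat was wide, −0.34 to 1.26, with 19 to 58 counts per library.

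Igf1r, the receptor through which both ligands signal, had 76.0, 74.0 and 93.7 CPM in HDM + nafamostat lungs, 54.1, 67.8 and 48.3 CPM in HDM lungs and 113, 142, 157 and 76.3 CPM in PBS lungs. The HDM libraries were the lowest throughout, the nafamostat libraries all lay above them, and PBS replicate 4 lay within the range of the nafamostat libraries. Igf1r fell with HDM by 1.10 on the log2 scale (SE 0.21, adjusted p = 0.00109 in edgeR's quasi-likelihood test). Its log2 fold change with nafamostat was 0.51 against HDM (adjusted p = 0.0836) and −0.58 against PBS (adjusted p = 0.0584), neither past the threshold of edgeR's quasi-likelihood test. The value against PBS passed under 6 of 14 alternatives, one of them without PBS replicate 4 (−0.76).

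Igf2r, the clearance receptor for IGF2, had 48.7, 77.9 and 80.0 CPM in HDM + nafamostat lungs, 59.9, 46.4 and 54.4 CPM in HDM lungs and 82.8, 84.6, 98.5 and 68.8 CPM in PBS lungs. It fell with HDM by 0.64 on the log2 scale (SE 0.15, adjusted p = 0.00496 in edgeR's quasi-likelihood test), with no overlap between HDM and PBS. The nafamostat libraries spread over most of the range of the other groups, with replicate 1 among the HDM values. Neither the log2 change from HDM of 0.35 (95% confidence interval −0.04 to 0.75) nor that from PBS of −0.27 (−0.64 to 0.10) passed.

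Of the binding proteins, Igfbp3, the main carrier of IGFs in blood, showed the smallest p of the members that fell with HDM. It had 130, 108 and 106 CPM with HDM + nafamostat, 112, 89.8 and 103 CPM with HDM and 228, 235, 256 and 194 CPM with PBS. Both HDM-treated groups lay below PBS and overlapped each other. The log2 fold change was −1.16 for HDM against PBS (SE 0.14, adjusted p = 2.41e-05 in edgeR's quasi-likelihood test) and −0.99 for HDM + nafamostat against PBS (SE 0.14, adjusted p = 0.000137). For HDM + nafamostat against HDM it was 0.16, with a 95% confidence interval of −0.14 to 0.45.

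Igfbp6, which prefers IGF2 over IGF1, had a like pattern, at 48.6, 27.9 and 34.5 CPM with HDM + nafamostat, 32.3, 39.0 and 16.7 CPM with HDM and 70.9, 65.5, 60.5 and 70.6 CPM with PBS. Every PBS library lay above all others, and the HDM libraries varied the most for this gene, with a coefficient of variation of 39.0%. The log2 fold change was −1.19 for HDM against PBS (SE 0.22, adjusted p = 0.000724 in edgeR's quasi-likelihood test) and −0.85 for HDM + nafamostat against PBS (SE 0.18, adjusted p = 0.00318). The log2 change with nafamostat against HDM was 0.33, with an interval of −0.24 to 0.90.

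Igfbp5, which binds IGFs and extracellular matrix, stood at 3 separate levels. It had 246, 191 and 231 CPM with HDM + nafamostat, 161, 167 and 104 CPM with HDM and 353, 328, 401 and 259.5 CPM with PBS. No group overlapped another, the nafamostat libraries lying between the HDM and the PBS libraries. Igfbp5 fell with HDM by 1.22 on the log2 scale (SE 0.18, adjusted p = 0.000141 in edgeR's quasi-likelihood test). Its value against HDM with nafamostat was 0.62 (SE 0.17, adjusted p = 0.0629), the smallest p of the members in that comparison, which passed under 5 of 14 alternatives in edgeR's quasi-likelihood test or DESeq2. Against PBS the HDM + nafamostat value was −0.58 (adjusted p = 0.0184), a call that was lost without PBS replicate 3 (adjusted p = 0.0571) and without HDM + nafamostat replicate 2 (0.101) or 3 (0.0585) in edgeR's quasi-likelihood test.

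Igfbp2, which carries an integrin-binding motif, had 182, 179 and 249 CPM with HDM + nafamostat, 140.3, 141 and 156 CPM with HDM and 237, 232, 218 and 291 CPM with PBS. The HDM libraries were the lowest and close together, and nafamostat replicate 3 lay among the PBS libraries. Igfbp2 fell with HDM by 0.74 on the log2 scale (SE 0.14, adjusted p = 0.000848 in edgeR's quasi-likelihood test). With nafamostat it stood 0.47 above HDM on the log2 scale (adjusted p = 0.0922) and at −0.26 from PBS (adjusted p = 0.293), and neither passed edgeR's quasi-likelihood test. The neighbouring genes Igfbp2 and Igfbp5 had the same signs in all 3 comparisons, as did Igf2, both receptors, Igfbp3 and Igfbp6.

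Markers of alveolar type 1 cells, where IGFBP2 is known to be made, were lower with HDM, as was Igfbp2. They summed to 2695 to 3360 CPM in HDM + nafamostat lungs, 2022 to 2235 CPM in HDM lungs and 4259.9 to 4638 CPM in PBS lungs, and 6 of 7 tested fell with HDM. Over all genes tested, 14.2% fell with HDM. In HDM + nafamostat lungs 4 of the 7 were lower than in PBS, against 5.53% of genes, while Igfbp2 did not pass there. Endothelium markers summed to 2915 to 3206 CPM with nafamostat, 2461 to 2626 CPM with HDM and 3575 to 4743 CPM with PBS, with 5 of 8 lower with HDM. Pericyte markers summed to 148 to 168 CPM, 123 to 142 CPM and 176 to 311 CPM in the same groups. With HDM 4 of 6 were lower and 1 was higher, Rgs5 (log2 fold change 1.34). Fibroblast markers summed to 4006 to 5019 CPM, 3829 to 4152 CPM and 4905 to 6259.7 CPM, with 6 of 12 lower and 2 higher. Among the lower was Pdgfra (log2 fold change −1.31), and the 2 higher were Col3a1 (1.29) and Dpt (0.65). Smooth muscle markers were not lower as a sum, at 1015 to 1229 CPM, 953 to 1099 CPM and 935 to 1008 CPM. Airway epithelium markers summed to 24832 to 33299 CPM with HDM + nafamostat, 21782 to 25336 CPM with HDM and 39450 to 46753 CPM with PBS, with 4 of 5 lower with HDM. Mesothelium markers summed to 84.6 to 96.4 CPM, 57.7 to 84.2 CPM and 110 to 206 CPM in the same groups, with 3 of 5 lower with HDM. Cardiac muscle markers summed to 424 to 661 CPM, 330.1 to 656 CPM and 620 to 1106 CPM, also with 3 of 5 lower. The part of these cell types in the values of the receptors and binding proteins was not tested.

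Igfbp4, a binding protein that the protease PAPP-A cleaves, was the only member above both other groups in every nafamostat library. It had 441, 441 and 509 CPM with HDM + nafamostat, 314, 384 and 314 CPM with HDM and 375, 372, 332 and 310.4 CPM with PBS. The HDM and PBS libraries overlapped. The log2 fold change was 0.42 for HDM + nafamostat against PBS (SE 0.13, adjusted p = 0.0432 in edgeR's quasi-likelihood test). This call was close to the threshold and was lost under 9 of 14 alternatives, among them each of the 7 fits that left out a library (adjusted p of 0.061 to 0.192 in edgeR's quasi-likelihood test). Against HDM the value was 0.45 (adjusted p = 0.0799), and for HDM against PBS it was −0.04 with a 95% confidence interval of −0.33 to 0.24.

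Igfbp7, a low-affinity IGF binder abundant in blood vessels, overlapped between all groups. It had 1036, 1105 and 1349 CPM with HDM + nafamostat, 1423, 1017 and 1108 CPM with HDM and 1051, 1343, 1165.5 and 1192 CPM with PBS. No group stood apart, and the log2 fold changes were −0.03, −0.01 and −0.02 for HDM + nafamostat against HDM, HDM against PBS and HDM + nafamostat against PBS. Their 95% confidence intervals reached from −0.37 to 0.31.

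The counts of Igf1 were also set against those of each other member in the same library, a ratio that no scaling of the libraries can alter and that carries Igf1's own change. Per 100 counts of Igf1r in the same library, there were 65.7 to 79.4 counts of Igf1 with HDM + nafamostat, 107 to 255 with HDM and 10.3 to 18.5 with PBS. Per 100 counts of Igfbp3 there were 38.6 to 70.1, 77.2 to 123 and 6.28 to 8.30 in the same groups. Per 100 counts of Igfbp7, which passed in none of the comparisons, there were 4.82 to 5.52, 7.15 to 9.72 and 1.19 to 1.80. The ratio to all 9 other members was higher in every HDM library, and in every HDM + nafamostat library, than in any PBS library. Igf1 itself did not overlap there, and its ratio to the gene did not overlap for 92.1% of genes for HDM against PBS and 90.2% for HDM + nafamostat against PBS. The share of members was near these, so that it is no result about the members. With nafamostat the ratio was lower than in any HDM library for 8 of 9 members, where 39.1% of genes had ratios that did not overlap. The ratio to Igfbp6 overlapped, at 103 to 216 with HDM + nafamostat and 186 to 478 with HDM.

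**Figure D4:**
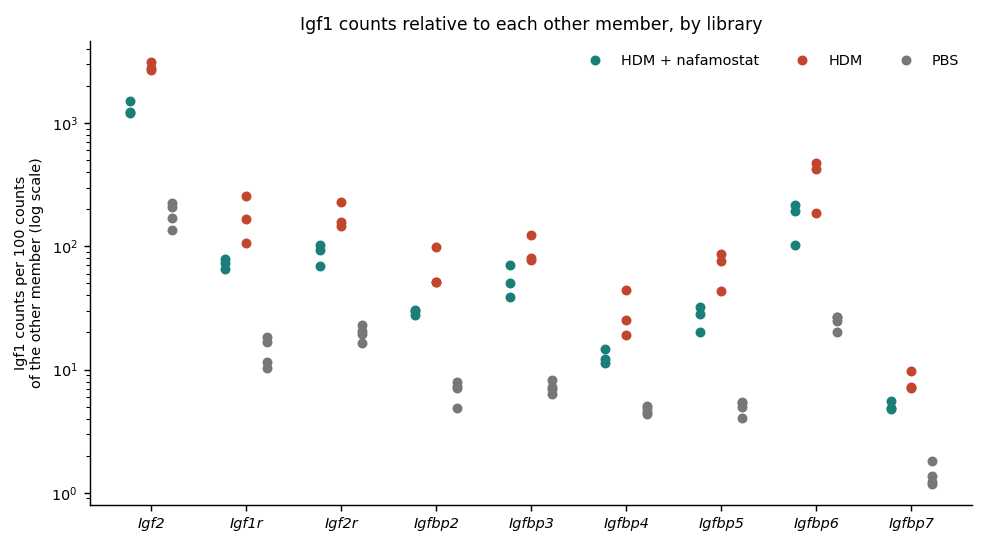
Counts of Igf1 per 100 counts of each other member, per library (log axis, 1 point per mouse). For every member the PBS libraries are lowest, and the HDM + nafamostat libraries lie below the HDM libraries except for Igfbp6, where 103 to 216 overlaps 186 to 478.

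The genes whose levels followed a member most closely over the 10 libraries were found by the root mean square difference of log2 CPM, each gene centred on its mean, among 9492 genes with a mean of at least 10 CPM. This is a description over libraries of 3 groups, for the 6 members whose group means spanned at least 1 on the log2 scale. Among the genes nearest to Igf1 were the amino acid transporter Slc7a8 (0.28) and the lipid mediator hydrolase Pla2g7 (0.29). Slc7a8 had 14.2 to 30.1 CPM with HDM + nafamostat, 24.0 to 34.1 CPM with HDM and 4.41 to 8.06 CPM with PBS. Igf1r was nearest to Soga1 (0.12), the receptor Notch1 (0.14) and the cytoskeletal linker Dst (0.14). Igfbp3 was nearest to the actin-severing protein Gsn (0.11), and Igfbp5 to the angiotensin receptor Agtr1a (0.12). Igfbp6 was nearest to Tmem119 (0.15), and Igf2 to Por (0.15), which passes electrons to cytochromes P450.

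Other genes of the pathway were described from lists. Of 24 genes of receptor signalling tested, 10 fell and 1 rose with HDM in edgeR's quasi-likelihood test, with a median log2 fold change of −0.41 against 0.02 over all genes. Of all genes tested, 14.2% fell and 15.3% rose. DESeq2 put 10 of the 24 lower and 3 higher. The adaptor Irs1, which links the receptor to phosphoinositide 3-kinase, had 20.4 to 26.1 CPM with HDM + nafamostat, 10.6 to 14.6 CPM with HDM and 26.1 to 44.8 CPM with PBS. It fell with HDM by 1.61 on the log2 scale. The transcription factors Foxo1 (−1.13) and Foxo3 (−0.97), which the pathway restrains, were also lower, as was the docking protein Gab1 (−0.67). The adaptor Grb2 was the gene that rose (0.71). The insulin receptor Insr, which can pair with IGF1R, fell by 0.77.

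With nafamostat against HDM, Foxo1 (0.85, adjusted p = 0.0122) and Irs1 (0.91, adjusted p = 0.0275) were the 2 of 24 signalling genes that passed edgeR's quasi-likelihood test, both higher, while DESeq2 put 4 higher. Over all genes, 0.951% were higher in edgeR's quasi-likelihood test, and 6.78% passed in either direction in DESeq2. Foxo1 had 62.8 to 72.5 CPM with HDM + nafamostat and 32.4 to 39.8 CPM with HDM. Its call was lost without HDM + nafamostat replicate 3 (adjusted p = 0.0933 in edgeR's quasi-likelihood test), and that of Irs1 without HDM replicate 1 or 3 or HDM + nafamostat replicate 1 or 3 (up to 0.114). Against PBS, HDM + nafamostat lungs had 2 of the 24 higher, Grb2 (0.78) and the adaptor Shc1 (0.61), and 1 lower, Irs1 (−0.68), where over all genes tested 8.73% were higher and 5.53% lower. The call of Irs1 against PBS was lost without PBS replicate 2 or 3 or HDM + nafamostat replicate 2 or 3.

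Relatives that carry the same cysteine-rich domain as the binding proteins fell with HDM in 7 of 11 cases in edgeR's quasi-likelihood test, and the other 4 did not pass. Over all genes tested, 14.2% fell. The median log2 fold change of the relatives was −0.74, against 0.02 over all genes. The endothelial proteoglycan Esm1 (−1.80), the serine protease Htra1 (−1.33) and the membrane protein Crim1 (−1.28) changed the most among them. Crim1 had 228 to 306 CPM with HDM + nafamostat, 129 to 166 CPM with HDM and 322 to 371 CPM with PBS. With nafamostat against HDM, Crim1 (0.82, adjusted p = 0.0156) and Esm1 (1.35, adjusted p = 0.0432) were higher in edgeR's quasi-likelihood test, the other 9 not passing, while DESeq2 put 4 of the 11 higher. Over all genes, 0.951% were higher in edgeR's quasi-likelihood test, and 6.78% passed in either direction in DESeq2. Crim1 was no longer past the threshold without HDM replicate 1 or HDM + nafamostat replicate 3, and Esm1 when any single HDM replicate or HDM + nafamostat replicate 1 or 3 was left out. Against PBS, HDM + nafamostat lungs had 3 of 11 lower, Htra1 (−0.74), the matricellular gene Cyr61 (−0.70) and Crim1 (−0.44). Over all genes tested, 5.53% were lower and 8.73% higher. Crim1 lost its call without PBS replicate 1, 2 or 3 or HDM + nafamostat replicate 1 or 2 (adjusted p up to 0.154 in edgeR's quasi-likelihood test), and Htra1 without HDM + nafamostat replicate 2 (0.0582), while Cyr61 passed in all 14 alternatives. The matricellular gene Nov was higher (0.79), a call lost without PBS replicate 3 or HDM + nafamostat replicate 1 or 3.

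Of 12 proteases that cleave binding proteins, or inhibitors of these, 4 rose and 2 fell with HDM. Over all genes tested, 15.3% rose and 14.2% fell. The gelatinase Mmp9 (1.65), the lysosomal protease Ctsd (1.38) and the stromelysin Mmp3 (1.11) were higher, and the protease Adamts1 (−1.14) was lower. Plg, a product of liver, also passed (2.70) at 3 to 37 counts in the HDM libraries and 0 to 4 in the PBS libraries, which overlapped, and its call was lost in 5 of the fits that left out a library. The summed liver markers, at 1.65 to 98.6 CPM with HDM + nafamostat, 30.8 to 175 CPM with HDM and 2.30 to 31.4 CPM with PBS, overlapped between the groups, and their part in the Plg values was not tested. The PAPP-A inhibitor Stc1 fell by 0.70, a call lost without PBS replicate 1 or 3 or HDM replicate 1 or 2. With nafamostat against HDM 0 of the 12 passed in edgeR's quasi-likelihood test, as in DESeq2, and 1 had an unadjusted p under 0.05. Over all genes these shares were 2.92%, 6.78% and 21.4%. Against PBS, where 11 were tested, Mmp9, Mmp3 and Ctsd were higher (1.69, 1.61 and 1.01) and Adamts1 was lower (−0.86) in HDM + nafamostat lungs. Over all genes tested, 8.73% were higher and 5.53% lower.

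In the growth hormone axis, which controls Igf1 in liver, 5 of 6 genes were tested. With HDM the kinase Jak2 rose by 0.74 and the receptor Ghr fell by 0.48 on the log2 scale, 1 of 5 each way. Over all genes tested, 15.3% rose and 14.2% fell, near these shares. Against PBS, 1 of the 5 passed in HDM + nafamostat lungs, Jak2, which was higher (0.73, adjusted p = 0.00223 in edgeR's quasi-likelihood test). Of all genes, 8.73% were higher and 5.53% lower there. Against HDM, 1 of the 5 passed with nafamostat, and it was lower, as were 1.97% of all genes. The feedback inhibitor Socs2 had 1.27 to 3.49 CPM with HDM + nafamostat and 5.91 to 7.77 CPM with HDM, a log2 fold change of −1.57 (adjusted p = 0.0422 in edgeR's quasi-likelihood test) whose call was lost when any single HDM replicate or HDM + nafamostat replicate 1 or 3 was left out, and with library totals only (adjusted p = 0.0525). Igfbp1, the binding protein that liver secretes, and Ins2 had 0 counts in all 10 libraries, where 3 counts would be 0.317 to 0.494 CPM. This limit covers counting error only, since reads carried no molecular identifiers.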

How the data were processed

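RNA of the upper portion of the left lung lobe was amplified with the Ion AmpliSeq mouse transcriptome panel. By the methods the lobes came from separate experiments, and which library came from which is not given in the sources used here. The authors deposited whole-number read counts for each amplicon without normalization, and the submitters' notes name the build mm10. The aligner and counter settings are not given in the sources used here. Symbols of 27 targets changed by a spreadsheet were read back from the amplicon name.

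Groups follow the labels. Each pair of groups was fitted separately in edgeR 4.0.16 under R 4.3.3: at least 30 counts summed over the comparison, TMM scaling, quasi-likelihood F test, Benjamini-Hochberg adjustment over all genes tested. CPM were scaled over all 10 libraries, with a prior count of 2 for log2 CPM. Alternatives were DESeq2 1.42.0, scaling by median-of-ratios factors or by totals alone, filterByExpr or no filter, all 3 groups in one fit, a replicate block, a 2-fold threshold and libraries left out. The code was tested on simulated data. Total counts per library ranged from 5901279 to 9666354. Replicates of a group differed by more than counting error (chi-square per gene 7.62 to 22.4).

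All 10 members are named in each comparison, with up to 5 genes per pathway list and comparison (smallest p first) and markers that bear on a member. Plg was named after its values were seen. The nearest-profile rule gave 3 genes for each member, of which some are named and 1 is not reported here. Members and lists were chosen with earlier results of these data known, so no list is independent evidence. Sequences are from RefSeq (GRCm38.p6), positions from GENCODE M21.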

Additional observations from a re-analysis of the deposited data

How the results depend on the processing

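Of the 14 member changes that passed, 180 of 196 refits under alternatives still passed and 16 did not, all of these for HDM + nafamostat against PBS: Igfbp4 (9), Igf2 (4) and Igfbp5 (3). For HDM against PBS, every fit gave 1 member higher and 7 lower at any fold, and the 2-fold threshold left 1 higher and 5 lower. Between HDM + nafamostat and HDM, 1 member was higher with library totals only and with filterByExpr, and 4 were higher and 1 lower with DESeq2 and with no filter. Leaving out single libraries gave 0 to 1 member higher and 0 lower. The cause was not tested. Between HDM + nafamostat and PBS, 1 member was higher and 0 lower at 2-fold, 1 was higher with library totals only, and leaving out single libraries gave 1 higher and 2 to 5 lower.

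Over all genes, the 2-fold threshold left 1063 higher and 599 lower for HDM against PBS, 15 and 105 for HDM + nafamostat against HDM and 650 and 161 for HDM + nafamostat against PBS. Between HDM + nafamostat and HDM, 137 genes were higher and 284 lower as reported. Library totals only gave 237 higher, filterByExpr 219 higher, DESeq2 416 higher and 561 lower, and no filter 522 and 749. Leaving out single libraries gave 1 to 259 higher and 14 to 453 lower, the fewest without HDM + nafamostat replicate 3 and the most without HDM + nafamostat replicate 2. With HDM replicate 3 and HDM + nafamostat replicate 2 both left out, 78 were higher. In the other comparisons that setting leaves out 1 library only. For HDM + nafamostat against PBS, single libraries left out gave 775 to 1450 higher and 421 to 1059 lower.

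Members near 0 changed sign. Igfbp7 for HDM against PBS was 2e-04 with median-of-ratios factors and with DESeq2, 0.0119 with all groups in one fit and −0.15 to 0.095 with single libraries left out. For HDM + nafamostat against HDM it was 0.0222 with library totals only and −0.15 to 0.11 with libraries left out, and against PBS −0.142 to 0.0465. Igfbp4 for HDM against PBS was −0.14 to 0.0154 with libraries left out.

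The labels number replicates alike in each group, but deviations of same-numbered libraries correlated at −0.18 to 0.12 and not every library was closest to its own number, so the numbers were not taken as pairs. With the replicate block, 10 genes were higher and 75 lower for HDM + nafamostat against HDM, and 1 member was higher for HDM + nafamostat against PBS. Among pathway genes, the block left Irs1 (adjusted p = 0.0733 in edgeR's quasi-likelihood test), Crim1 (0.0508) and Socs2 (0.0682) above the threshold for HDM + nafamostat against HDM, and Plg (0.251) for HDM against PBS. Depth limits Igf2 the most.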
